A study of Mus musculus with 6 samples.

Results

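The genes described here are those whose symbols begin with Mrpl or Mrps (proteins of the mitochondrial ribosome), Timm or Tomm (protein import) or Slc25a (the mitochondrial carrier family) followed by a digit. They were picked by symbol alone, though with earlier results of these data known, and 124 of the 10245 genes of the deposited table matched. Of the 124, 71 belong to the mitochondrial ribosome, 20 to import and 33 to the carriers. RefSeq lists 150 mouse protein-coding genes with such symbols. The other 26 (7 ribosome, 5 import and 14 carrier genes, among them Timm23, Mrps6 and Slc25a40) have no entry under that symbol. Of these, Mrpl57, Mrpl58 and Timm29 are entered under the older symbols Mrp63, Ict1 and 1810026J23Rik. The deposited table only holds genes that reach 27.6 normalized counts in at least 1 library, and why the others are absent was not tested.

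RNA-seq was performed on whole pancreas of 3 control mice, Ptf1a(CreER/+), and 3 Ptf1a cKO mice, Ptf1a(CreER/fl). All 6 mice were given 0.25 mg of TM (tamoxifen) per g by gavage on 3 days and were sacrificed on day 14. CreER is knocked into Ptf1a, so it is driven by the Ptf1a promoter in acinar cells, the controls carry only 1 working copy of Ptf1a, and only the second allele differs between the groups. The controls were 4 months old (1 male and 2 females) and the Ptf1a cKO mice 5 months (likewise 1 male and 2 females), so age follows genotype and the effects of age and genotype cannot be told apart. The comparison asks how loss of PTF1A, the transcription factor that maintains acinar identity, alters the transcriptome of the adult pancreas. Ptf1a itself measured 566, 601 and 652 normalized counts in the controls and 19.8, 70.1 and 10.2 in the Ptf1a cKO libraries.

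Mitochondria keep a ribosome of their own, which makes a handful of membrane proteins of the respiratory chain and the ATP synthase from mitochondrial DNA, while every protein of that ribosome is encoded in the nucleus. Nuclear-encoded mitochondrial proteins enter through the TOM complex of the outer membrane. From there the TIM23 complex takes proteins with a presequence into the matrix and inner membrane, and the small TIM chaperones pass multi-membrane proteins such as the carriers to the TIM22 complex for insertion into the inner membrane. The carriers of the SLC25 family then exchange nucleotides, amino acids, cofactors, carboxylates and ions across that membrane. Acinar cells make and secrete very large amounts of digestive enzymes and draw on mitochondrial ATP and amino acid metabolism to do so.

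Values are normalized counts as deposited, already scaled between libraries. A gene was called changed when its adjusted p-value (limma across all 10245 genes with Benjamini-Hochberg adjustment) lay below 0.05. By this test 33 of the 124 members (26.6%) were called, 8 higher and 25 lower in the Ptf1a cKO. Among all genes 33.9% were called, 17.1% higher and 16.8% lower, so the members were not called more often than genes at large, and the split of their calls was 6.45% higher to 20.2% lower. The estimate lay below 0 in 89 members (71.8%) against 46.9% of all genes. The libraries of the groups did not overlap in 60 members (48.4%), 15 higher and 45 lower, where the background was 50.8%. Most differences were small: 5 members were called with a change of at least 2-fold (11.0% of all genes), namely Mrpl16, Slc25a20, Slc25a35, Timm10 and Slc25a22. None of the members lay at or below 3 normalized counts in all libraries of a group, and the filter on low values removed none.

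The median log2 fold change was -0.22 for the mitochondrial ribosome, -0.23 for import and -0.14 for the carriers, beside 0.04 for all genes, but these signs depend on the scaling of the libraries. With every library set to the same total, the medians became 1.24, 1.23 and 1.31 while that of all genes became 1.49. Relative to the median of all genes the groups thus lay at -0.26, -0.27 and -0.18 under the deposited scaling and at -0.25, -0.26 and -0.17 under the same total. With the same total after removal of the digestive enzymes, the median of all genes was -0.14 and the calls were 2 higher and 25 lower for the ribosome, 0 and 8 for import and 3 and 13 for the carriers. Directions below refer to the deposited scaling, in which the median gene is nearly level.

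**Figure D1:**
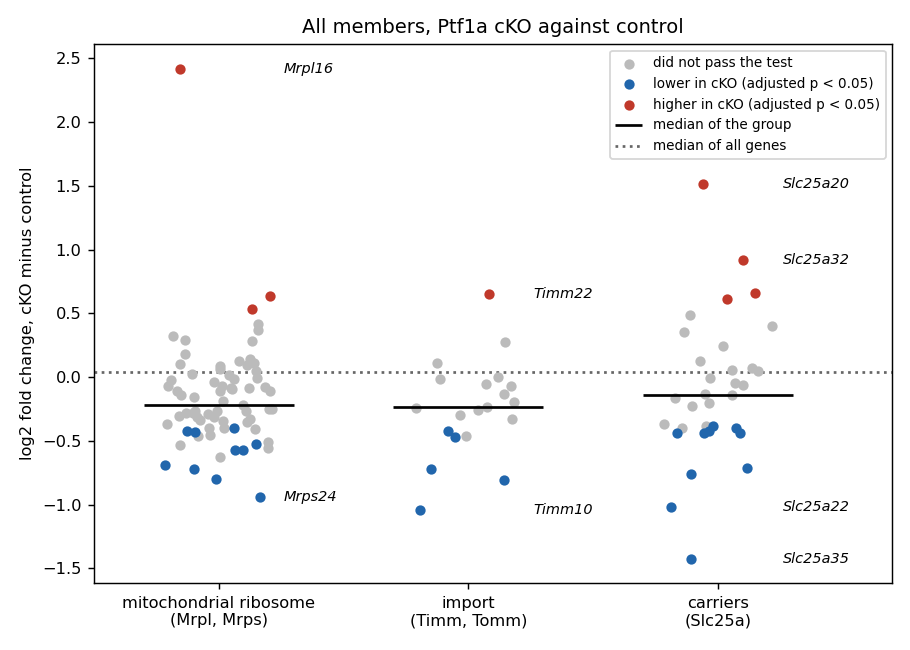
Log2 fold change (Ptf1a cKO minus control, deposited scaling) of each of the 124 members by group, 1 point per gene, with the median of each group and of all genes as lines. The medians of the 3 groups lie between -0.23 and -0.14, below the 0.04 of all genes (all are positive, at 1.23 to 1.49, with libraries set to the same total), and Mrpl16 stands above every other member at 2.42.

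The values by library differed between the families. The median difference of the 11 Timm genes from the control mean was -0.30, -0.30 and -0.41 log2 units in the 3 Ptf1a cKO libraries, and between -0.04 and 0.03 in the controls. For the 26 Mrps genes these medians were -0.11, -0.09 and -0.46, and for the 45 Mrpl genes -0.09, -0.18 and -0.28. The groups of libraries did not overlap in any of these families, and library 3 of the Ptf1a cKO was the lowest in each. The medians over all genes did not overlap either, at 0.03, 0.01 and 0.05 in the Ptf1a cKO and up to 0.006 in the controls. A lack of overlap alone therefore does not set these families apart, although their direction was the opposite. The 9 Tomm genes differed, with medians of 0.04, -0.14 and -0.30 in the Ptf1a cKO against -0.14, 0.01 and 0.11 in the controls, which overlap. The medians of the carriers were -0.03, -0.16 and -0.11 in the Ptf1a cKO, also below the controls, which lay between -0.003 and 0.002.

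**Figure D2:**
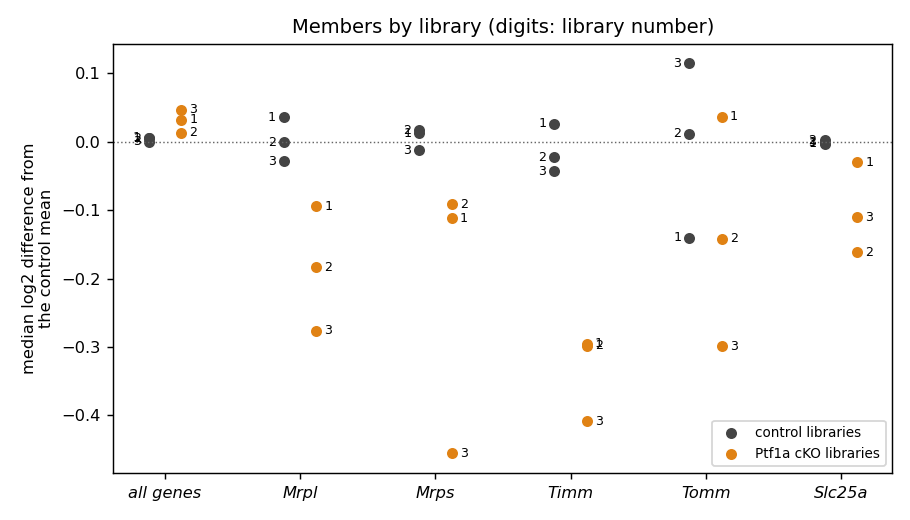
Median log2 difference from the control mean, on the deposited scaling, over all genes and over the Mrpl, Mrps, Timm, Tomm and Slc25a genes, with 1 point per library and its number beside it. Ptf1a cKO library 3 lies lowest for Mrpl, Mrps, Timm and Tomm, and only Tomm overlaps between the groups.

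Marker genes of several cell types differed between the groups, and among all genes 33.9% were called. Of 12 acinar markers 9 were lower and none higher, and they summed to between 9765500 and 12256500 normalized counts in the controls and between 1246900 and 3795570 in the Ptf1a cKO. Higher were 5 of 8 ductal markers (sums 3796 to 4674 and 25320.1 to 109805), 7 of 9 leukocyte markers (445 to 740.2 and 1174 to 2562) and 9 of 10 fibroblast and stellate markers (3058 to 3475 and 5991 to 10563). None of the 7 endothelial and 8 endocrine markers was called (sums 724 to 891 and 733 to 889 for the former, 11411 to 42705 and 5855 to 33300.4 for the latter), and 1 of 5 adipose (169.8 to 427 and 321 to 1293) and 1 of 2 smooth muscle and nerve markers (112 to 136 and 143 to 309) were higher. No listed marker was at 0 in every library. In these whole-tissue libraries fewer cells of a type and less RNA per cell cannot be told apart, and the part of this shift in the results below was not tested.

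The sequences before the gene starts were read for the members, because NRF1, the ETS factor GABP and YY1 are textbook regulators of nuclear genes for mitochondrial proteins. RefSeq (GRCm38.p6) promoter windows, of 250 bases before to 50 after the start, were at hand for 103 of the 124 members. Shares below are of genes with a window, namely 62 ribosome, 17 import and 24 carrier genes and 7732 genes of the table. The letters CCGGAAG (ETS), searched on both strands, were in 35.5% of the ribosome, 35.3% of the import (6 genes) and 25% of the carrier genes (6 genes). They were in 21% of the genes of the table. GCGC, any 2 bases and GCGC again (NRF1) were found in 21%, 11.8% and 8.33% of the groups and 15.8% of the table, and AANATGGCG (YY1) in 16.1%, 11.8% and 4.17% and 6.61% of the table. By direction, the ETS letters were in 3 of 7 members called higher and 5 of 21 called lower, the NRF1 letters in 0 and 4, and the YY1 letters in 0 and 2. The stretches below are the last 150 bases before the start for the member of each group with the largest called change among those holding a searched motif there. They are written 5′ to 3′ on the gene's own strand, which is the plus strand for all of them, with the matched letters in capitals.
Slc25a20, chr9:108661986-108662135: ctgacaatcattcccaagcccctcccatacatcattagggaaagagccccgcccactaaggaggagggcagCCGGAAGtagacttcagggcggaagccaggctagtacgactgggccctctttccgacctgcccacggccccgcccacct
Timm10, chr2:84826871-84827020: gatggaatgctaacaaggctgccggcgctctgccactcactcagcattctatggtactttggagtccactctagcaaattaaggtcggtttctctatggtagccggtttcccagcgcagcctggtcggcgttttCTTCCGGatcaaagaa
Mrpl12, chr11:120484487-120484636: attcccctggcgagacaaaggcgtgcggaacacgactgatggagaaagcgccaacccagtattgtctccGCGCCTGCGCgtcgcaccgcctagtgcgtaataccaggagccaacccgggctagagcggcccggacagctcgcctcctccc
The ETS letters of Slc25a20, a gene that was higher, begin 79 bases before the start. Those of Timm10, which was lower, begin 16 bases before it and read on the opposite strand. The NRF1 letters of Mrpl12, also lower, begin 81 bases before the start. None of the matched letters overlap another searched motif in these stretches. A match describes the letters only.

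Among the 71 mitochondrial ribosome genes, 13 were called (18.3%, beside 33.9% of all genes). Of these, 3 were higher (4.23%) and 10 lower (14.1%), beside 17.1% and 16.8% of all genes. All 3 that rose encode proteins of the large subunit with a counterpart in the bacterial ribosome. The small subunit had 4 lower (16.7%) and none higher of its 24 genes, and the large subunit 6 lower of 47 (12.8%). Mrps18a and Mrps30 are counted with the large subunit, as their proteins are placed. Of the 42 genes listed with a bacterial counterpart 11 were called. The other 29 were listed as mitochondria-specific, although they include Mrps18a and Mrps18b, variants of the S18 protein. Of these 29, 2 were called, Mrps26 and Mrpl53, both lower.

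Mrpl16, whose protein lies in the core of the large subunit, showed by far the widest gap of any member. It measured 118, 96.7 and 79.4 normalized counts in the controls and 589, 529 and 485 in the Ptf1a cKO (98.0 ± 19.2 and 534 ± 52.0, SD, n = 3 each). The lowest Ptf1a cKO library lay far above the highest control, and the log2 fold change was 2.42 (SE 0.15, adjusted p = 2.47e-05). In the GRCm38 annotation the gene next to it upstream, on the same strand and within 10 kb, is Gif (gastric intrinsic factor), and that gene measured 431, 671 and 404 in the controls and 44073, 43042 and 17717 in the Ptf1a cKO. Stx3, a syntaxin gene downstream on the opposite strand, also rose, from 109 to 242 on average (log2 fold change 1.12, adjusted p = 5.72e-04). All 3 neighbouring genes were thus higher together, and whether reads from beyond a neighbour's end entered the count of Mrpl16 was not tested.

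The other rises were smaller. Mrpl33 measured 68.4, 76.7 and 63.4 in the controls and 127, 100.2 and 104 in the Ptf1a cKO (log2 fold change 0.64, adjusted p = 0.00925). Mrpl24 measured 157, 154 and 149.6, and 254, 219 and 202 (0.54, adjusted p = 0.00918). Neither gene's groups overlapped. The call of Mrpl24 was lost with the same total without digestive enzymes (adjusted p = 0.0568). Both overlap a gene on the opposite strand, Rbks and Rrnad1, which were not called (0.18 and 0.23). The sources used here do not state whether reads were counted by strand.

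Mrps24, a protein of the small subunit near the entry of the mRNA channel, fell the most: 519.7, 479.6 and 441 in the controls and 279.5, 290.3 and 189 in the Ptf1a cKO (log2 fold change -0.94, SE 0.17, adjusted p = 0.00319). It overlaps Urgcp on the same strand, which was also lower (-0.41). Mrpl12, the stalk protein that recruits translation factors to the ribosome, measured 259, 232 and 251, and 128, 164 and 132 (-0.80, SE 0.13, adjusted p = 0.00188). In the annotation Slc25a10, the dicarboxylate carrier, lies just downstream of Mrpl12 on the same strand, and it did not pass the test (0.25, adjusted p = 0.152), so these neighbours did not share a direction.

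Mrpl15, in the large subunit, was tight among the controls at 224, 227 and 228 and measured 145, 151 and 115 in the Ptf1a cKO (-0.72, adjusted p = 0.0031). Mrps26, a mitochondria-specific protein of the small subunit, measured 211, 192 and 222, and 124, 148 and 114 (-0.69, adjusted p = 0.00418). Mrpl30 measured 256, 282 and 249.8, and 209, 179 and 143 (-0.57, adjusted p = 0.0165). In all of these the highest Ptf1a cKO library lay below the lowest control. The remaining calls, all lower, were Mrps2 (-0.57), Mrpl55 (-0.52), Mrps7 (-0.43), Mrpl53 (-0.43) and Mrpl28 (-0.40), and Mrps7 overlaps Mif4gd on the opposite strand, itself lower (-0.54). Mrps7 and Mrpl28 lost their calls with the same 75th percentile and with limma without a trend (adjusted p up to 0.0636 and 0.0555).

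Of the genes that were not called, Mrpl21 had the widest estimate, with 31.6, 45.2 and 48.6 in the controls and 37.0, 17.5 and 25.3 in the Ptf1a cKO (-0.62, SE 0.29, adjusted p = 0.13), where the groups overlap. The 3 variants of the S18 protein sit at different places in the ribosome and also differed in their values. Mrps18a, which is built into the large subunit, measured 219, 191 and 161, and 137, 154 and 137, and missed the threshold narrowly (-0.40, adjusted p = 0.0508). Mrps18b and Mrps18c were at -0.25 (adjusted p = 0.327) and 0.09 (adjusted p = 0.7). The ratio of Mrps18a to Mrps18c within a library, which no scaling can alter, was 4.18, 2.94 and 3.02 in the controls and 1.93, 2.72 and 2.48 in the Ptf1a cKO. These do not overlap, and the exact permutation test gave p = 0.1, the smallest that 3 against 3 libraries allow (two-sided, 0.325 after Benjamini-Hochberg adjustment over 13 ratios of paralogs).

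Of the 13 ribosome calls 8 held whichever library was left out. Without control 2 the count fell from 13 to 8, losing Mrpl28, Mrpl30, Mrpl53, Mrpl55 and Mrps7, and without Ptf1a cKO 3 it was 9. Mrpl55 and Mrpl53 were also lost without Ptf1a cKO 3 and Mrpl53 without control 1, while Mrpl28 went with any control or Ptf1a cKO 3 left out and Mrps7 with any library but Ptf1a cKO 2. Under any removal the largest adjusted p of these 5 genes lay between 0.0647 and 0.125, and their estimates stayed negative. Over all genes the share called without control 2 was likewise smaller, 23.1%.

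**Figure D3:**
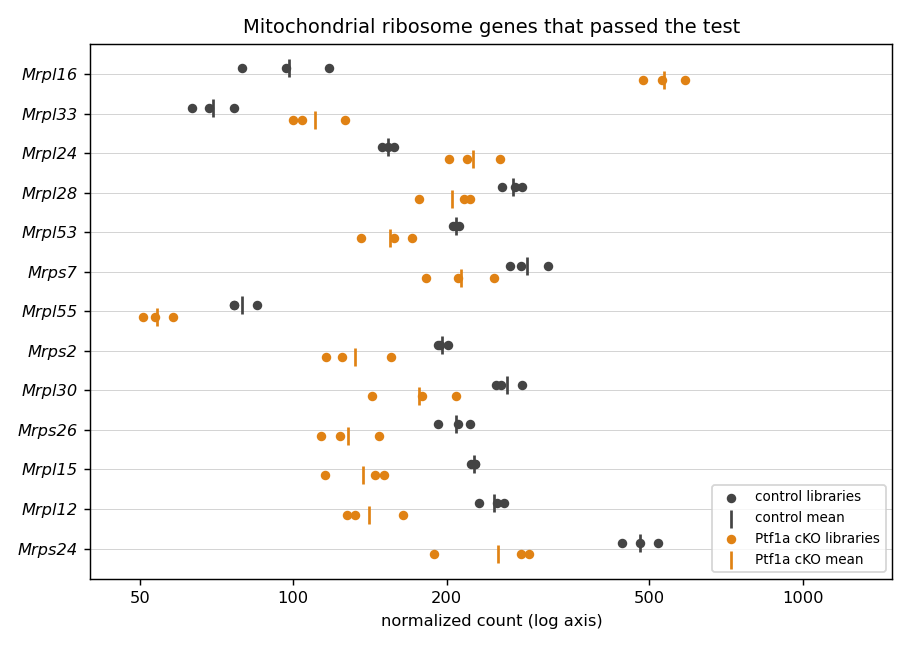
Normalized counts (log axis) of the 13 mitochondrial ribosome genes that passed the test, ordered by log2 fold change from Mrpl16 (2.42) to Mrps24 (-0.94), with 1 point per library and a bar at each mean of 3 libraries. In each gene the control and Ptf1a cKO points are apart, and only Mrpl16 differs by more than 2-fold.

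The rest of the machinery of mitochondrial translation was described from lists of genes that the symbol rule leaves out. Among all genes 33.9% were called. None of 6 other subunits of the ribosome, such as Dap3 (0.19) and Chchd1 (-0.38), was called. Of 16 assembly factors 2 were higher, Mterfd2 (0.64) and Mterfd1 (0.63), and 3 lower, Noa1 (-1.06), a GTPase needed to build the small subunit, Rbfa (-0.87), which matures its RNA, and Ftsj2 (-0.60). Of 11 translation factors only the elongation factor Gfm1 was called (-0.55). Among 20 genes that charge mitochondrial tRNAs 5 were lower: Lars2 (-2.06), Mars2 (-0.99), Gars (-0.67), Kars (-0.49) and Gatc (-0.39). Gars and Kars serve the cytosol as well. Lars2, the mitochondrial leucyl-tRNA synthetase, measured 4186, 2935 and 3496 in the controls and 722, 1063 and 761 in the Ptf1a cKO (adjusted p = 1.32e-04), a larger fall than in any of the 124 members.

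Among the 20 import genes 6 were called (30%, beside 33.9% of all genes). Of these, 1 was higher (5%) and 5 lower (25%), beside 17.1% and 16.8% of all genes. All 6 carry the name Timm. Called were 6 of 11 Timm genes (54.5%) and 0 of 9 Tomm genes, and a test of that difference was not made. Among the genes of the carrier route into the inner membrane, 3 chaperone genes were lower and the channel gene Timm22 was higher.

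Timm9 and Timm10 encode the partners of the soluble small TIM complex that guides carriers across the intermembrane space. Timm10 measured 59.3, 77.7 and 62.0 in the controls and 35.5, 32.2 and 24.0 in the Ptf1a cKO (log2 fold change -1.04, SE 0.20, adjusted p = 0.00484). Timm9 measured 77.7, 71.3 and 104, and 51.8, 61.6 and 37.2 (-0.72, SE 0.21, adjusted p = 0.0294). Timm10b, the small TIM protein that is bound to the TIM22 complex, measured 191, 169 and 204, and 112, 120.0 and 88.6 (-0.80, SE 0.14, adjusted p = 0.00316). In all 3 genes every Ptf1a cKO library lay below every control. Timm10b overlaps Arfip2 on the opposite strand, which was not called (-0.28). The other small TIM genes, Timm8b (108, 87.6 and 119, and 101, 87.2 and 77.5) and Timm13, did not pass the test, at -0.23 (adjusted p = 0.283) and -0.20 (adjusted p = 0.254).

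Timm22, the channel of the carrier translocase, went the other way: 44.0, 41.9 and 42.1 in the controls and 65.0, 62.9 and 80.5 in the Ptf1a cKO (log2 fold change 0.65, SE 0.16, adjusted p = 0.0136). The SD of the controls was 1.12 normalized counts, and the lowest Ptf1a cKO library lay well above them. Without Ptf1a cKO 3, the highest of the group, the adjusted p was 0.0548, and with the same total without digestive enzymes it was 0.0532. The neighbouring gene Abr, downstream on the opposite strand, was also higher (0.90).

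In the TIM23 complex the called genes were Timm17b, a channel subunit, and Timm44, which tethers the import motor. Timm17b measured 274, 201 and 199 in the controls and 168, 169 and 143 in the Ptf1a cKO (-0.47, adjusted p = 0.0398). Timm44 measured 249, 235 and 225, and 173, 192 and 161 (-0.43, adjusted p = 0.0198). Timm17a, the paralog of Timm17b, measured 84.6, 93.0 and 74.0, and 67.4, 67.0 and 62.7, and did not pass the test (-0.33, adjusted p = 0.0945). Timm17b lost its call with the same 75th percentile and with limma without a trend (adjusted p up to 0.0644). The ratio of Timm17a to Timm17b overlapped between the groups (0.309, 0.464 and 0.372, and 0.4, 0.398 and 0.438). Timm50, a presequence receptor, and Timm21 were at -0.26 and 0.11 and were not called.

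In the TOM complex and its cytosolic helper Tomm34, the estimates ran from -0.47 (Tomm5) to 0.27 (Tomm7), and the median of the 9 Tomm genes was -0.07. Tomm40, the pore of the outer membrane, measured 182, 172 and 167 in the controls and 134, 153 and 135 in the Ptf1a cKO, apart but short of the threshold (-0.30, adjusted p = 0.0689). Its paralog Tomm40l measured 293, 271 and 246, and 263, 236 and 189.7 (-0.24, adjusted p = 0.222). The ratio of these paralogs overlapped between the groups (log2 difference -0.06, SE 0.15). Tomm5, a small subunit, varied widely in the controls (55.9, 68.7 and 97.8, and 59.0, 54.3 and 42.3), and the receptors Tomm20, Tomm22 and Tomm70a lay at -0.07, -0.13 and -0.05.

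Of the import calls, Timm10 and Timm10b held without any single library. The count of 6 fell to 3 without control 1, to 3 without Ptf1a cKO 1 and to 2 without Ptf1a cKO 3. Over all genes the share called also fell in these fits, from 33.9% to 23.8%, 25.9% and 23.7%. Timm17b, Timm44 and Timm9 each lost their call in 4 of 6 such fits, with adjusted p-values of up to 0.129, 0.0731 and 0.096, and with the sign kept. The losses of Timm17b and Timm44 were without control 1, control 2, Ptf1a cKO 1 or Ptf1a cKO 3, and those of Timm9 without control 1, control 3, Ptf1a cKO 1 or Ptf1a cKO 3.

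**Figure D4:**
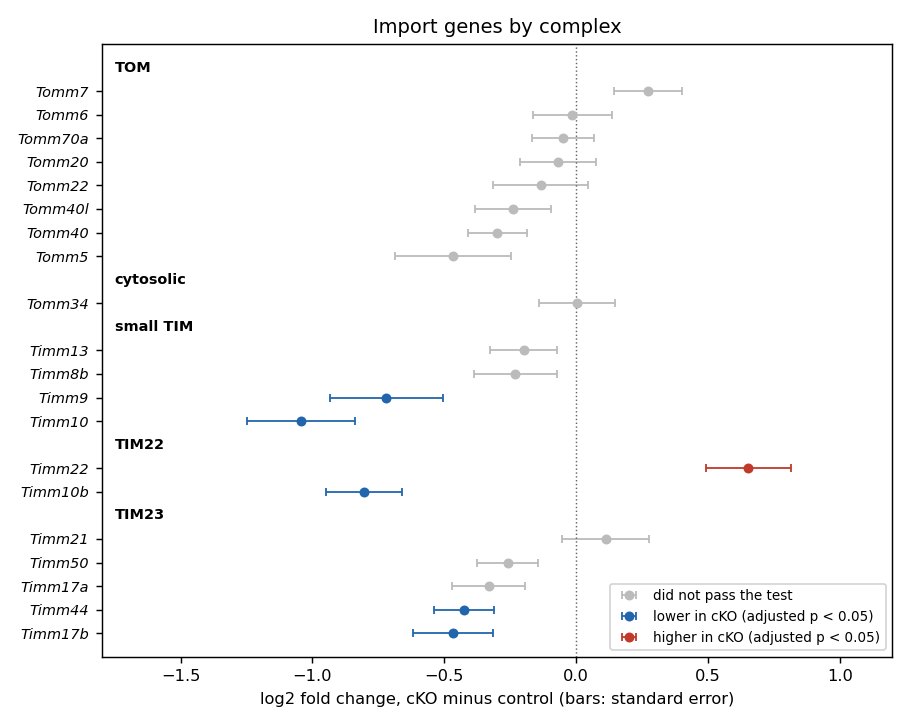
Log2 fold change (Ptf1a cKO minus control, deposited scaling) with its standard error for the 20 import genes, arranged by complex. Timm10, Timm10b and Timm9 lie at -1.04, -0.80 and -0.72 and Timm22 at 0.65, while none of the TOM genes passed the test, and with libraries set to the same total each point moves up together with the median of all genes (1.49).

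Of 20 further import genes, 1 was higher and 6 lower (35% called, beside 33.9% of all genes). Chchd4, the oxidoreductase that traps and folds the small TIM proteins in the intermembrane space, measured 121, 100.4 and 119 in the controls and 56.2, 67.5 and 39.1 in the Ptf1a cKO (-1.05, adjusted p = 0.00385). Gfer, which reoxidizes it, did not pass the test (-0.42, adjusted p = 0.0599). Also lower were genes of the import motor and the matrix chaperones that it hands proteins to: Hspa9 (-0.58), Grpel2 (-0.51), Dnlz (-0.59) and Hspd1 (-0.52), and the presequence-degrading protease Pitrm1 (-0.41). Mtx3, an outer membrane metaxin, was higher (0.45).

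The carriers held the largest share of calls, 14 of 33 (42.4%, beside 33.9% of all genes), with 4 higher and 10 lower. They were the most mixed group, with members of the same substrate class on both sides.

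Among the 7 carriers of amino acids 3 were lower and none higher. Slc25a22, a glutamate carrier, measured 205, 213 and 218 in the controls and 95.8, 104 and 109 in the Ptf1a cKO (log2 fold change -1.02, SE 0.11, adjusted p = 3.07e-04). Slc25a15, the ornithine carrier of the urea cycle and of polyamine and proline metabolism, measured 172, 179 and 137, and 88.9, 100.5 and 93.2 (-0.76, SE 0.14, adjusted p = 0.00321). In both, the control and Ptf1a cKO libraries were far apart and the Ptf1a cKO libraries close to each other. Slc25a38, which brings glycine into the matrix for haem synthesis, was also lower (-0.43, adjusted p = 0.0156). The aspartate-glutamate carriers of the malate-aspartate shuttle were not called. Slc25a12 measured 232, 260.5 and 200.5, and 230.1, 169.7 and 193 (-0.22), and Slc25a13 measured 71.8, 69.9 and 77.7, and 75.9, 70.0 and 82.1 (0.05).

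The adenine nucleotide carriers that swap ADP for ATP moved in opposite directions. Slc25a4, known from heart and skeletal muscle, measured 69.8, 86.2 and 116 in the controls and 126, 118 and 193 in the Ptf1a cKO (log2 fold change 0.66, SE 0.23, adjusted p = 0.0491). Slc25a5, known from proliferating and epithelial cells, measured 727, 778 and 898, and 666, 567 and 536 (-0.44, SE 0.13, adjusted p = 0.0295). The highest control for Slc25a4, at 116, lay next to the lowest Ptf1a cKO library, at 118. The ratio of Slc25a4 to Slc25a5 within a library was 0.096, 0.111 and 0.129 in the controls and 0.190, 0.207 and 0.360 in the Ptf1a cKO. This ratio does not depend on the scaling, was higher in all 3 Ptf1a cKO libraries than in any control (log2 difference 1.12, SE 0.31), and gave an exact permutation p = 0.1, the smallest possible here (0.325 adjusted over 13 ratios). Each of the calls was lost in 4 of 6 fits with a library left out. That of Slc25a4 went without control 1, control 2, Ptf1a cKO 1 or Ptf1a cKO 3 (adjusted p up to 0.163) and that of Slc25a5 without control 2, control 3, Ptf1a cKO 2 or Ptf1a cKO 3 (up to 0.0858). The call of Slc25a4 was also lost with a pseudocount of 1, the median of ratios, limma without a trend and the same total without digestive enzymes (up to 0.12), and that of Slc25a5 with limma without a trend (0.0509).

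The calcium-regulated ATP-Mg/phosphate carriers Slc25a23, Slc25a24 and Slc25a25 were not called. Slc25a23 measured 821, 847 and 713, and 845, 843 and 813 (0.08). Slc25a25 measured 135, 88.9 and 119, and 93.5, 115 and 116 (-0.06). Slc25a24 was the uncalled carrier with the widest estimate, at 23.2, 18.8 and 30.5, and 36.1, 28.4 and 40.2 (0.48, adjusted p = 0.184), and its groups overlapped.

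Of the 9 carriers of other nucleotides and cofactors 2 were higher and 2 lower. Slc25a32, which transports folate and FAD, measured 65.9, 58.3 and 54.6 in the controls and 106, 100.5 and 143 in the Ptf1a cKO (0.91, SE 0.16, adjusted p = 0.00321). Slc25a36, a pyrimidine nucleotide carrier, measured 144, 150.2 and 176, and 283, 233 and 212 (0.61, SE 0.14, adjusted p = 0.0103). Slc25a33, the other pyrimidine nucleotide carrier, was level (30.1, 32.5 and 28.1, and 29.5, 30.4 and 27.8; -0.04, adjusted p = 0.895). The ratio of Slc25a33 to Slc25a36 was 0.210, 0.217 and 0.160 in the controls and 0.104, 0.131 and 0.131 in the Ptf1a cKO, which do not overlap (exact permutation p = 0.1). The lower genes were Slc25a51, the NAD carrier (-0.42, adjusted p = 0.0227), and Slc25a42, the coenzyme A carrier (-0.40, adjusted p = 0.0466), whose call was lost with the same 75th percentile, limma without a trend and the replicate block (up to 0.0682).

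Slc25a20, which exchanges carnitine for acylcarnitine and so lets long-chain fatty acids into the matrix for oxidation, rose the most of the carriers. It measured 28.7, 13.2 and 30.5 in the controls and 77.8, 66.6 and 70.5 in the Ptf1a cKO (24.1 ± 9.49 and 71.6 ± 5.71, SD, n = 3 each). The Ptf1a cKO libraries were alike and more than 2-fold above the highest control (log2 fold change 1.51, SE 0.28, adjusted p = 0.00367). Its neighbour Prkar2a was lower (-0.36). Among the carboxylate carriers Slc25a11, for oxoglutarate and malate, measured 373, 387 and 417, and 323, 302 and 276 (-0.38, adjusted p = 0.0273), and overlaps Rnf167, which was not called (0.38). Slc25a10, for dicarboxylates, measured 286, 275 and 291, and 306, 394 and 319, apart but not called (0.25, adjusted p = 0.152). The ratio of Slc25a10 to Slc25a11 was 0.767, 0.711 and 0.698 in the controls and 0.947, 1.31 and 1.15 in the Ptf1a cKO (log2 difference 0.64, SE 0.14, exact permutation p = 0.1). The citrate carrier Slc25a1 was at -0.01.

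Slc25a28, mitoferrin 2, which imports iron, measured 393, 367 and 301 in the controls and 226, 238 and 181 in the Ptf1a cKO (-0.71, SE 0.15, adjusted p = 0.00645). Its paralog Slc25a37, mitoferrin 1, measured 151, 147 and 177, and 97.0, 139 and 123. These did not overlap, but the test was not passed (-0.40, adjusted p = 0.071). The ratio of both overlapped between groups (log2 difference -0.31, SE 0.28). Slc25a3, the phosphate carrier that feeds the ATP synthase, was at -0.14 and Slc25a39, which carries glutathione, at -0.17 (1364, 1330.4 and 1045, and 1212, 1156 and 956), neither of them called.

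Slc25a35, a carrier whose substrate is not established, fell the most of all 124 members. It measured 517, 446 and 334 in the controls and 140.4, 216 and 126 in the Ptf1a cKO (432 ± 92.6 and 161 ± 48.4, SD, n = 3 each; log2 fold change -1.43, SE 0.22, adjusted p = 0.00157). The lowest control, at 334, lay well above the highest Ptf1a cKO library, at 216. Slc25a46, an outer membrane protein of mitochondrial dynamics, measured 298, 335 and 271, and 205, 236 and 223 (-0.44, SE 0.12, adjusted p = 0.0226).

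Of the carrier calls 7 held in every fit with a library left out, namely Slc25a15, Slc25a20, Slc25a22, Slc25a28, Slc25a32, Slc25a35 and Slc25a36. The count of 14 fell to 9 without control 1, to 7 without control 2 and to 7 without Ptf1a cKO 3. Over all genes the share called also fell in these fits, from 33.9% to 23.8%, 23.1% and 23.7%. Beside Slc25a4 and Slc25a5, the calls that were lost were those of Slc25a38 (without control 2 or Ptf1a cKO 3), Slc25a51 (likewise, and without control 1), Slc25a46 (without control 1, control 2, Ptf1a cKO 1 or Ptf1a cKO 3), Slc25a11 (without any control or Ptf1a cKO 3) and Slc25a42 (without any library but Ptf1a cKO 2). Their largest adjusted p-values were 0.0547, 0.0927, 0.0916, 0.086 and 0.145, and the signs were kept.

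**Figure D5:**
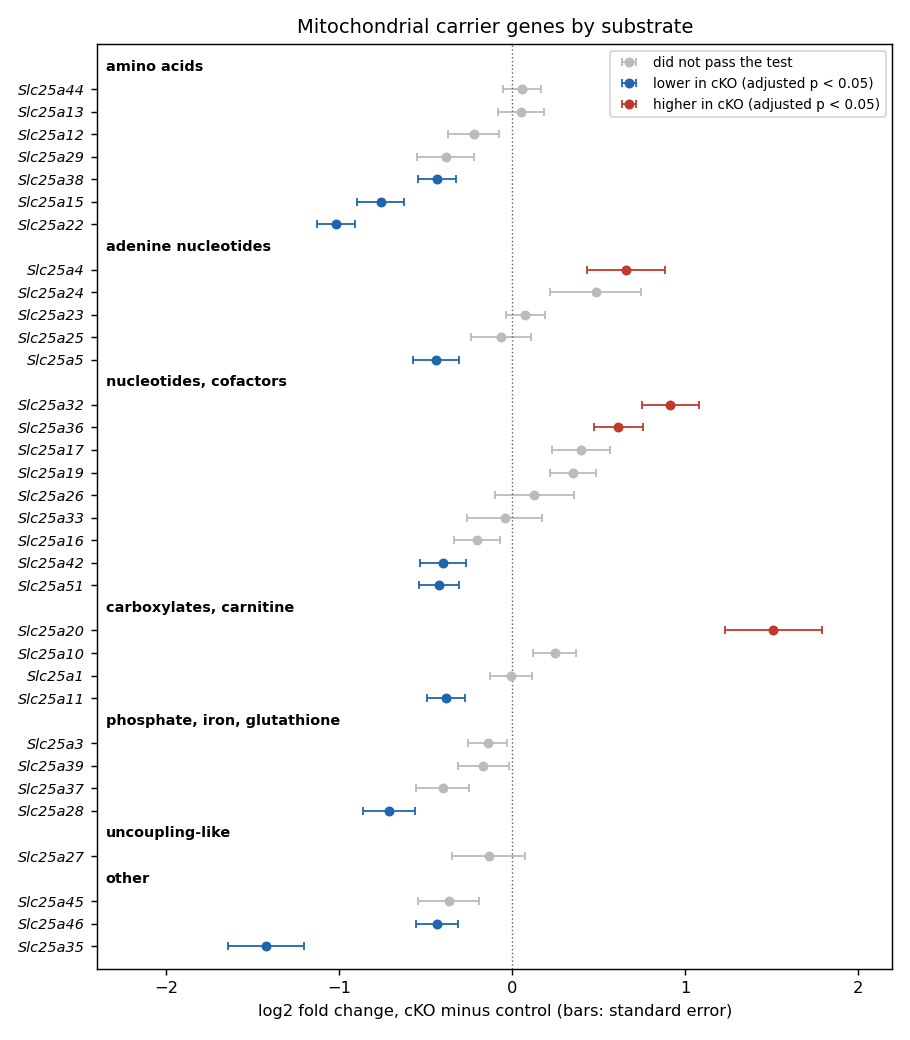
Log2 fold change (Ptf1a cKO minus control, deposited scaling) with its standard error for the 33 carrier genes, arranged by the substrate of the carrier. Slc25a20 (1.51) and Slc25a35 (-1.43) mark the ends, Slc25a4 (0.66) and Slc25a5 (-0.44) lie on opposite sides, and with libraries set to the same total every point moves up together with the median of all genes (1.49).

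Of 14 further genes for transport across mitochondrial membranes, 1 was higher and 2 lower (21.4% called, beside 33.9% of all genes). Ucp2, an uncoupling protein that belongs to the carrier family under another name and is abundant in leukocytes, measured 141, 94.9 and 183 in the controls and 435, 324 and 681 in the Ptf1a cKO (1.74, adjusted p = 0.00221). The leukocyte markers were higher in the same libraries, as given above, and a link between them and Ucp2 was not tested. Sfxn1, which carries serine into mitochondria, measured 507, 491 and 419.9, and 298, 286 and 245 (-0.77, adjusted p = 0.0021), and Sfxn2 was also lower (-0.71). The porin genes Vdac1, Vdac2 and Vdac3 were at -0.30, -0.17 and -0.14 and were not called.

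Of 12 regulators of mitochondrial gene expression and biogenesis 3 were lower and none higher (25% called, beside 33.9% of all genes). Pprc1, a coactivator of the PGC-1 family, measured 459, 511 and 517 in the controls and 198, 284 and 194 in the Ptf1a cKO (-1.15, adjusted p = 8.82e-04). Ppargc1a, which encodes PGC-1alpha, measured 33.9, 52.0 and 37.6, and 19.1, 22.9 and 21.3 (-0.84, adjusted p = 0.0281), and the DNA polymerase gene Polg was at -0.40. The factors whose letters were searched for in the promoters were level by comparison and not called, with Nrf1 at -0.01, Gabpa at -0.11 and Yy1 at 0.22, as was Tfam at -0.06. None of 11 general mitochondrial genes was called, and their estimates ran from -0.41 (Clpp) to 0.03 (Cs, citrate synthase, at 599, 638 and 612, and 637, 601 and 647).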

How the data were processed

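RNA-seq had been performed by the authors on 6 whole-pancreas libraries. According to the study's methods, reads were aligned with Tophat2 and groups were compared after TMM normalization. The submitters' processing notes name TopHat2 2.0.4, Bowtie 0.12.7.0, SAMtools 0.1.18.0, HTSeq 0.6.0 and the build mm9. The authors deposited a single table of signal values, namely normalized counts with decimals, from which whole reads could not be recovered, so no count test was run and no counting error is given. Sequencing depth, which the study's methods give per library, cannot be read from it. Gene totals were 17949900 to 21175800 in the controls and 5527100 to 8981110 in the Ptf1a cKO, and the median gene lay at 125.0 to 128.5 in every library. The 3 entries without a gene, 75.7% to 82.6% of a library, were left out. Most of this was alignments that were not unique, 74.4% to 81.1% of a library, which do not enter the gene values.

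Values were divided by 13.6393, and log2(value + 0.25) was fitted with limma 3.58.1 (R 4.3.3; lmFit and eBayes with a trend, two-sided) across 10245 genes, without covariates. Genes needed a mean of 0.25, which removed 0. Fold changes are on this log2 scale and understate changes of low genes. The p-values weigh the difference between the groups against the spread between 3 mice per group, with variances moderated across genes. The ratios of paralogs were compared by exact permutation tests. The fit was tested on simulated data. Neighbours of genes came from GENCODE M21 and RefSeq (GRCm38), not the build of the files, so no gene coordinates are given. Promoters of RefSeq carry GRCm38.p6 positions, and protein sequences were not used here.

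Members, lists and tests were chosen with earlier results of these data known. Named with values are the 5 largest rises and 5 largest falls among called ribosome genes, 4 and 4 for import, 6 and 6 for carriers, all listed paralogs, the uncalled gene of each group with the widest estimate, and called genes of the further lists. Other genes given beside them were chosen after their values were seen. Alternatives were other pseudocounts (0.05, 1), filters, scalings and limma settings, sex as a covariate, the replicate block, an adjusted p under 0.01 and each library left out.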

Additional observations from a re-analysis of the deposited data

How the results depend on the processing

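The scaling of the libraries changed the results most. With every library set to the same total, 70 ribosome, 19 import and 31 carrier genes were called, all higher, and the medians turned from negative to 1.24, 1.23 and 1.31, in step with the median of all genes (1.49), of which 98.7% of the calls were then higher. Under that scaling 38 of the 51 named members changed sign. Mrpl21 (0.74) was called in neither fit, and the others were Mrpl12 (0.67), Mrpl15 (0.75), Mrpl28 (1.08), Mrpl30 (0.90), Mrpl53 (1.05), Mrpl55 (0.90), Mrps18a (1.07), Mrps18b (1.17), Mrps2 (0.90), Mrps24 (0.54), Mrps26 (0.78), Mrps7 (1.05), Slc25a11 (1.10), Slc25a12 (1.25), Slc25a15 (0.70), Slc25a22 (0.45), Slc25a25 (1.39), Slc25a28 (0.77), Slc25a33 (1.31), Slc25a35 (0.052), Slc25a37 (1.06), Slc25a38 (1.03), Slc25a39 (1.33), Slc25a42 (1.06), Slc25a46 (1.04), Slc25a5 (1.05), Slc25a51 (1.07), Timm10 (0.35), Timm10b (0.66), Timm17a (1.11), Timm17b (1.01), Timm44 (1.05), Timm8b (1.22), Timm9 (0.70), Tomm40 (1.17), Tomm40l (1.24) and Tomm5 (0.96). With the same total but without the digestive enzymes, 27, 8 and 16 genes were called, the medians were -0.40, -0.41 and -0.33, and 29.6% of the calls over all genes were higher, against 50.4% as deposited. A filter on a mean of 5 left 3 import calls and a carrier median of -0.21, with fewer genes tested, and an adjusted p under 0.01 left 7, 2 and 6 calls. With each library left out in turn, 8 to 19 ribosome, 2 to 6 import and 7 to 16 carrier genes were called, with medians of -0.26 to -0.15, -0.29 to -0.14 and -0.19 to -0.10. Over all genes the share called in these fits was 23.1% to 35.1%. Of the 33 called members 17 held in all 6 of these fits and 33 with sex as a covariate.

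Same-numbered libraries were not shown to be pairs. Their deviations from the group means correlated at 0.04, 0.13 and 0.14, and 5 of 6 libraries correlated best with the library of their own number. With the replicate block 12, 6 and 13 members and 3525 of all genes were called, and the calls of Mrps7 (adjusted p = 0.0573) and Slc25a42 (0.0682) were lost. For the 51 named members, alternatives other than the same total moved 71 values out of the called range and 12 into it and left 773 on the same side of the threshold. Among these, 9 values of 5 uncalled members close to 0 (Slc25a23, Slc25a13, Slc25a25, Slc25a33 and Mrps18c) changed sign, and 0 called members did. The causes of these changes were not tested. The study gives aligned reads per library, but the scaled values do not show the reads behind each gene, so no counting error is given for low genes such as Slc25a20 and Slc25a24.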
